A study of Mus musculus with 6 samples.

Results

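The transcription factors that set up and maintain the hepatocyte were read here as 8 genes: the C/EBP factors Cebpa and Cebpb, the FOXA factors Foxa1, Foxa2 and Foxa3, the ONECUT factors Onecut1 and Onecut2, and the prospero homeobox factor Prox1. They were taken by gene symbol, as liver-enriched factors that are not nuclear receptors, out of 22180 genes with a probe set of 1 gene symbol. All 8 were found, each with 1 probe set. Total RNA from the livers of 6 mice was hybridised to 1 array per mouse, and 41345 probe sets were read as log2 signals, on which a difference of 1 is a doubling. All 6 mice were knockouts of Creb3l3, the gene for the liver factor CREB-H (CREB-H KO, allele Creb3l3tm1.1Sad/J), 8 weeks old and on a normal diet, and each was given a virus aimed at the liver through the peritoneum. In 3 mice it brought a fluorescent protein (AAV-GFP, the GFP group), and in 3 mice CREB-H in its active form (AAV-CREB-H-ΔTC, the CREB-H group). Livers were taken 2 weeks later. Every mouse, controls included, was of the knockout genotype, and the promoter of the vectors was not stated in the labels. The comparison asks whether the hepatocyte factors respond when active CREB-H is returned to a liver without it.

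These factors act as a network. FOXA proteins open chromatin at liver genes, C/EBP alpha drives the metabolic genes of the mature hepatocyte, and C/EBP beta carries acute-phase and regenerative responses. The ONECUT proteins, of which Onecut1 encodes HNF6, act early in the hepatoblast and in bile duct formation, and PROX1 is needed for hepatoblast migration and later restrains bile acid and lipid genes together with HNF4 alpha and LRH-1. CREB-H itself binds cAMP response elements and related sites of the unfolded protein response.

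Array medians lay between 4.98 and 5.01, and precision is limited by having 3 arrays per group. Creb3l3 read 6.55, 5.93 and 6.4 with GFP and 6.73, 7.25 and 7.58 with CREB-H, and the groups differed in the labelled direction without overlap (log2 difference 0.89, SE 0.25, limma adjusted p = 0.647). Whether this probe set lies in the deleted or the supplied stretch was not examined. Replicate 3 of each group stood apart by sex-linked RNA. The mean of Kdm5d, Eif2s3y and Uty was 7.83 in GFP replicate 3 and 7.67 in CREB-H replicate 3, against 3.15 to 3.39 on the other 4 arrays, and Xist was 4.43 and 3.75 there, against 10.83 to 11.35. The labels give no sex, and sex cannot be told apart from other properties of these 2 mice. Genes of mature hepatocytes averaged 13.05 to 13.13 on every array, and 3 pancreatic acinar markers averaged 4.68 to 5.49, with the highest value in CREB-H replicate 2.

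None of the 8 factors passed the test between the groups. With limma and Benjamini-Hochberg adjustment over all probe sets, their adjusted p ran from 0.715 to 0.996, and 2 of the 41345 probe sets (0.00484%) passed at 0.05. At an unadjusted p below 0.05 there was 1 of 8 members, Cebpa, against 6.89% of all probe sets. The groups did not overlap in 1 of 8 members, again Cebpa, against 12.3% of all probe sets. Of the 8, 6 had a higher mean with CREB-H and 2, both ONECUT genes, a lower one. The median log2 difference of the 8 was 0.15, against -0.01 over all probe sets, and the median size regardless of sign was 0.23 against 0.12. Their spread was also wider: the median within-group standard deviation was 0.26 for the 8 and 0.18 for all probe sets. In bulk liver, fewer cells of a type and less RNA per cell cannot be told apart.

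**Figure D1:**
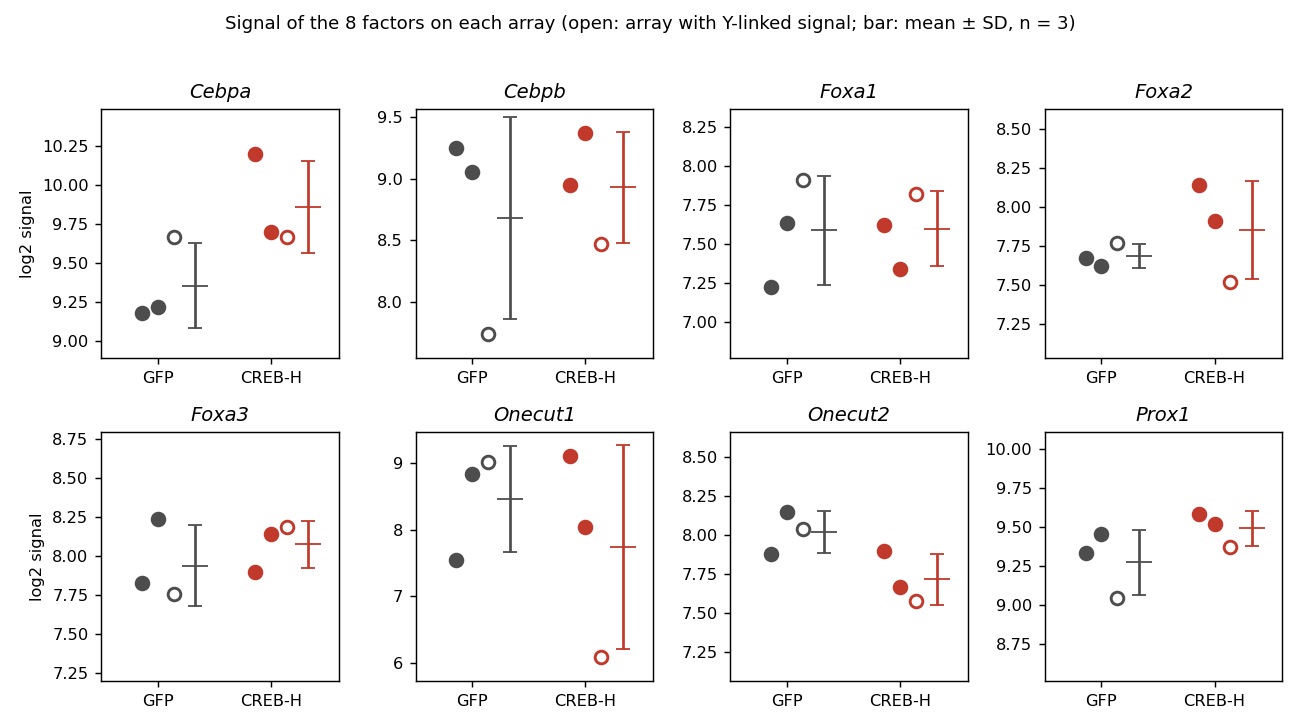
Log2 signal of each factor (vertical axis, a scale of its own in each panel) on the 3 GFP and 3 CREB-H arrays, with the mean and SD of each group beside the points and the arrays with Y-linked signal as open circles. The Cebpa groups meet at 9.67 without overlap, and Onecut1 in CREB-H replicate 3 sits at 6.09, far below every other array.

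Promoter sequence was examined because the supplied protein binds DNA. RefSeq windows of the 250 bases before the transcription start (build GRCm38.p6) were read for 7 of the 8 genes, 10 windows in all. All windows of 1 chromosome were left out of the search and of the shares over all windows. None was read for Onecut2. Shown are those of Cebpa, the factor with the lowest p, Cebpb, which held the most half-sites, and Onecut1, the factor with the widest spread. Each runs 5′ to 3′ on the plus strand, with matches to TGACG (the half-site of the cAMP response element) and ACGTG (the core of the unfolded protein response element) on either strand in capitals. Cebpa lies at chr7:35119043-35119292, Cebpb at chr2:167688665-167688914 and Onecut1 at chr9:74861671-74861920.
Cebpa: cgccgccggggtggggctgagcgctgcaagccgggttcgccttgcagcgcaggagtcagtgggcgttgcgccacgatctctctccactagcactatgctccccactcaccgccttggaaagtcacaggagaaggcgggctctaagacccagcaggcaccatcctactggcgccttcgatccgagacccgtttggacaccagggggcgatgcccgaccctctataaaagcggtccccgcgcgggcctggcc
Cebpb: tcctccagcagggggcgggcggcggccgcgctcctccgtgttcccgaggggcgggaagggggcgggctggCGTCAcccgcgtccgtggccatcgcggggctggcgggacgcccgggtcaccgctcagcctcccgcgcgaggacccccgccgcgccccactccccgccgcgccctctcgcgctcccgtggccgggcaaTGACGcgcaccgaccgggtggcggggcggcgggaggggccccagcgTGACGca
Onecut1: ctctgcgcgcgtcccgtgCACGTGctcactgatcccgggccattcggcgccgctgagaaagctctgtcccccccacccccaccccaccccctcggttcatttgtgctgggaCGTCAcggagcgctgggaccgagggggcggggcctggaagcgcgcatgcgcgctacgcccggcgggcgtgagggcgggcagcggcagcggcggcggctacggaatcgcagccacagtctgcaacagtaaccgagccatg
Cebpa held neither motif. Cebpb held 3 half-sites, which begin 180, 53 and 7 bases before the start, and no ACGTG. Onecut1 held 1 half-site, which begins 139 bases before the start, and a palindrome that reads ACGTG on both strands, 232 and 231 bases before it. Thus 2 of the 10 windows held TGACG, a motif present in 17.8% of the 32851 such windows kept from RefSeq. ACGTG was in 1 of the 10, against 16.6%. The full element TGACGTCA, which contains 2 overlapping half-sites, was in no window of the factors and in 1.55% of all. Sites for the factors themselves were also sought. TTGCNNAA (C/EBP) was in none, against 9.56% of all windows. TGTTTAC (FOXA) was in 1, that of Foxa1, against 3.17%, and ATTGAT (ONECUT) in 1 of the 3 windows of Foxa2, against 6.72%. A match is a run of letters and was not tested for binding here.

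Cebpa, the gene for C/EBP alpha, had signals of 9.18, 9.22 and 9.67 with GFP and 10.20, 9.70 and 9.67 with CREB-H (probe set 17476728). All 3 CREB-H arrays lay above all 3 GFP arrays, but CREB-H replicate 3 exceeded GFP replicate 3 by only 0.00101. The means were 9.36 ± 0.27 and 9.86 ± 0.30 (SD, n = 3 per group). They differed by 0.50 on the log2 scale (SE 0.20), or 1.42-fold with a 95% interval of 1.02 to 1.96. The unadjusted limma p was 0.0407 and the adjusted p 0.715. An exact permutation test (two-sided) gave p = 0.1, and 3 against 3 arrays can give nothing smaller. Most of the difference lay in the 4 arrays without Y-linked signal, where it was 0.75, while the 2 arrays with that signal differed by 0.00101. Cebpa without CREB-H replicate 1 differed by 0.33.

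Cebpb, the gene for C/EBP beta, had signals of 9.25, 9.05 and 7.74 with GFP and 8.95, 9.37 and 8.47 with CREB-H (probe set 17379938). The groups overlapped, and the lowest array of each group was replicate 3. The means were 8.68 ± 0.82 and 8.93 ± 0.45 (SD, n = 3 per group). They differed by 0.25 (SE 0.42, limma adjusted p = 0.944), with a 95% interval from -0.76 to 1.25. GFP replicate 3 decided the sign: without it the difference was -0.22. It was 0.01 in the 4 arrays without Y-linked signal and 0.73 in the 2 with it. The within-group SD of 0.66 was exceeded by 2.61% of all probe sets.

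Cebpb is also expressed in macrophages, so Kupffer cell markers are given beside it. Their mean over 7 genes was 8.26, 8.90 and 7.76 with GFP and 8.86, 9.14 and 8.27 with CREB-H, lowest on the same array as Cebpb. All 7 had a higher mean with CREB-H (median log2 difference 0.42), and none passed. Vsig4, a complement receptor of Kupffer cells, differed by 0.60 (SE 0.27), and the lectin Clec4f by 0.36 (SE 0.25). The median of the Kupffer markers was 0.22 without GFP replicate 3, where 6 of 7 were higher, and 0.25 without CREB-H replicate 2. It was 0.68 when GFP replicate 2 was left out and 0.69 when CREB-H replicate 3 was. Granulocyte markers had a lower mean in 5 of 6 (median -0.08), but in 3 of 6 without GFP replicate 2 or without CREB-H replicate 1 (median 0.01 each). Their mean ran from 4.24 to 4.47 with GFP and from 4.11 to 4.51 with CREB-H. The part of either cell type in the values of Cebpb was not tested.

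Reported targets of each C/EBP factor gave no passing gene. Of 10 targets of C/EBP alpha, 5 had a higher and 5 a lower mean (median 0.01). The split rested on single arrays: 9 of 10 were higher without CREB-H replicate 3 (median 0.06) and 3 of 10 without GFP replicate 3 (median -0.04). Gys2, the liver glycogen synthase, had 11.33, 11.40 and 11.45 with GFP and 12.50, 11.97 and 12.56 with CREB-H. These groups lay well apart, by 0.95 (SE 0.17, limma adjusted p = 0.556). The gluconeogenic gene Pck1 differed by 0.495 (SE 0.17) and its partner G6pc, the glucose-6-phosphatase subunit, by -0.52 (SE 0.23). Without GFP replicate 3 Pck1 differed by 0.31, and without CREB-H replicate 1 G6pc differed by -0.33. Of 12 acute-phase targets of C/EBP beta, 7 had a higher and 5 a lower mean (median 0.06). Their mean per array was 10.66, 10.85 and 10.02 with GFP and 10.52, 10.94 and 10.25 with CREB-H, so that replicate 3 was the lowest of each group, as for Cebpb. The median of the acute-phase targets was -0.08 without GFP replicate 3 and -0.10 without CREB-H replicate 2. The lowest p was that of Lbp, the lipopolysaccharide-binding protein (-0.21, SE 0.14), and the fibrinogen chains Fgg and Fga differed by 0.07 (SE 0.09) and 0.06 (SE 0.10).

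The FOXA factors differed little in the mean, and in all 3 the groups overlapped. Foxa1 had 7.22, 7.63 and 7.91 with GFP and 7.62, 7.34 and 7.82 with CREB-H (probe set 17281337). Replicate 3 was the highest of each group, and the means were nearly the same, 7.59 ± 0.35 and 7.60 ± 0.24 (SD, n = 3 per group). The log2 difference of Foxa1 was 0.01 (SE 0.21), with a 95% interval of 0.715 to 1.42 for the fold. Its sign depended on single arrays: leaving out GFP replicate 1 gave -0.17, and leaving out GFP replicate 3 gave 0.17.

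Foxa2, which also works in fasting metabolism, had 7.67, 7.62 and 7.77 with GFP and 8.14, 7.91 and 7.52 with CREB-H (probe set 17392561). CREB-H replicates 1 and 2 lay above all GFP arrays and replicate 3 below them. The difference of the means, 7.69 ± 0.07 and 7.85 ± 0.31 (SD, n = 3 per group), was 0.17 (SE 0.17, limma adjusted p = 0.899), and its 95% interval was -0.23 to 0.57. Foxa2 was 0.38 in the 4 arrays without Y-linked signal, -0.25 in the 2 arrays with it, and 0.03 without CREB-H replicate 1.

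Foxa3, which supports glucose transporter expression in the fasting liver, had 7.83, 8.24 and 7.76 with GFP and 7.90, 8.14 and 8.19 with CREB-H (probe set 17487149). The groups overlapped through GFP replicate 2, the highest of the 6. The means were 7.94 ± 0.26 and 8.08 ± 0.15 (SD, n = 3 per group), with a log2 difference of 0.14 (SE 0.16) and a 95% interval of -0.25 to 0.52. It was -0.01 in the 4 arrays without Y-linked signal, 0.29 without GFP replicate 2 and 0.04 without GFP replicate 3.

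Of 8 reported FOXA targets with a probe set, 5 had a higher and 3 a lower mean (median 0.10, and -0.01 without GFP replicate 3), and none passed. With each array centred on its median, 7 of the 8 were higher. Cpt1a, which admits long-chain fatty acids to mitochondria for oxidation, had 11.26, 11.15 and 11.08 with GFP and 11.64, 11.31 and 11.78 with CREB-H, without overlap (0.41, SE 0.15). Mttp, which loads lipid onto apolipoprotein B, also did not overlap, in the other direction (-0.20, SE 0.11). Apom, an apolipoprotein of HDL, differed by 0.18 (SE 0.17). Among factors that assist the members, Ppargc1b, a coactivator of FOXA2, had 6.94, 6.51 and 6.73 with GFP and 7.69, 7.44 and 6.89 with CREB-H. Its CREB-H replicate 3 lay within the GFP range, and the difference was 0.61 (SE 0.22, limma adjusted p = 0.693).

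**Figure D2:**
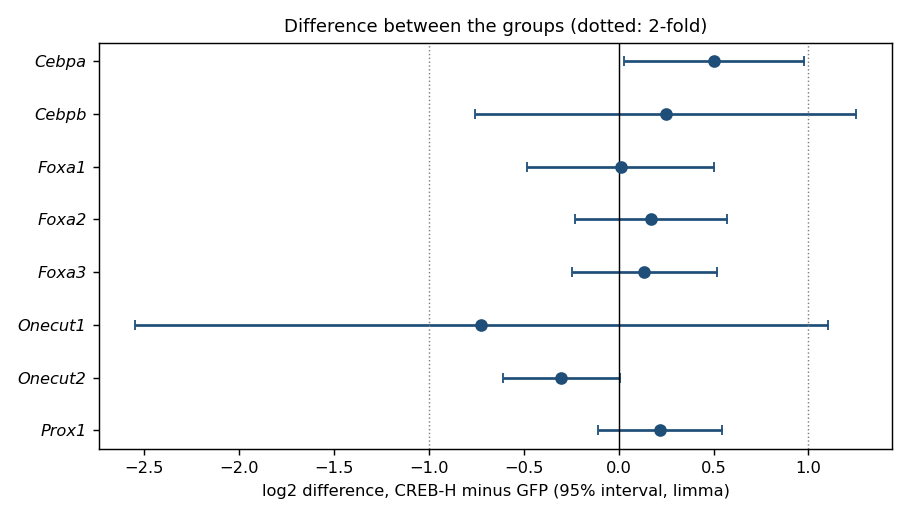
Log2 difference of each factor between CREB-H and GFP (horizontal axis) with its 95% interval from limma, and dotted lines at a doubling and a halving. The intervals of 6 factors stay within 2-fold either way, while those of Cebpb and Onecut1 do not.

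The ONECUT genes had the only negative differences of the 8 and differed widely in their spread. Onecut1 had 7.55, 8.83 and 9.02 with GFP and 9.11, 8.04 and 6.09 with CREB-H (probe set 17519357). CREB-H held both the highest and the lowest array of the 6, a range of 3.02. The means were 8.47 ± 0.80 and 7.74 ± 1.53 (SD, n = 3 per group), and the log2 difference of -0.72 (SE 0.77, limma adjusted p = 0.905) had a 95% interval from -2.55 to 1.10. It rested on CREB-H replicate 3, without which it was 0.11. Arrays lacking Y-linked signal gave 0.38, and the pair that carried it gave -2.93. GFP replicate 3 lay 0.82 above the mean of its group's other arrays, while in CREB-H the same gap was -2.48. Its within-group SD of 1.22 was exceeded by only 0.266% of all probe sets, and its -0.72 was exceeded in size by 1.93%.

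Onecut2, the close relative of Onecut1, had 7.88, 8.15 and 8.04 with GFP and 7.90, 7.67 and 7.58 with CREB-H (probe set 17351273). The groups overlapped only through CREB-H replicate 1, which exceeded GFP replicate 1. The means were 8.02 ± 0.13 and 7.72 ± 0.16 (SD, n = 3 per group). The log2 difference was -0.30 (SE 0.13), with a limma adjusted p of 0.733 and an unadjusted one of 0.0529. As a fold this was 0.811, with a 95% interval of 0.655 to 1.00. The difference was negative on both sides of the Y-linked split (-0.23 in 4 arrays, -0.46 in the 2 with that signal), and lay between -0.39 and -0.23 with any 1 array left out. Its spread was ordinary, with 61.1% of all probe sets above its within-group SD of 0.15.

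Onecut factors mark bile duct cells as well as hepatocytes, so cholangiocyte markers are given beside them. Of 5 with a probe set, 4 had a higher and 1 a lower mean with CREB-H (median 0.25). The median was 0.06 without GFP replicate 3 and 0.12 without CREB-H replicate 3. With the dimmest 50% of probe sets left out, the lower marker alone was kept, so the 4 higher ones are dim. The mean of all 5 markers per array ran from 4.46 to 4.70 with GFP and from 4.72 to 4.77 with CREB-H. Sox9, a factor of bile duct cells and hepatoblasts, was the lower one, with 6.31, 6.19 and 6.08 against 5.80, 5.95 and 5.75 (-0.36, SE 0.11, limma adjusted p = 0.652). Krt19, a bile duct keratin, had 4.16, 4.41 and 4.14 against 4.75, 4.51 and 4.60 (0.38, SE 0.12). Neither pair of groups overlapped, and the directions were opposite. The part of bile duct cells in the ONECUT values was not tested.

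**Figure D3:**
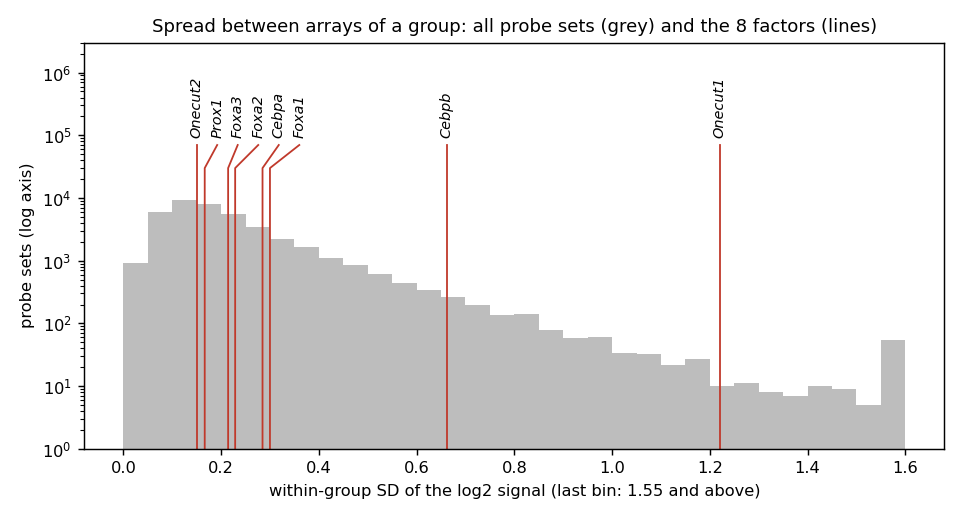
Distribution of the within-group SD of the log2 signal over all probe sets (grey, number on a log axis) with the 8 factors as red lines. Onecut1 at 1.22 and Cebpb at 0.66 lie in the thin right tail, and Onecut2 at 0.15 and Prox1 at 0.17 in the bulk.

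Prox1, a corepressor of HNF4 alpha and LRH-1 in the liver and the master factor of lymphatic endothelium, had 9.33, 9.45 and 9.04 with GFP and 9.58, 9.52 and 9.37 with CREB-H (probe set 17230960). The groups overlapped through CREB-H replicate 3, which lay below GFP replicate 2, and replicate 3 was the lowest of each group. The means were 9.27 ± 0.21 and 9.49 ± 0.11 (SD, n = 3 per group), with a log2 difference of 0.22 (SE 0.14, limma adjusted p = 0.827) and a 95% interval of -0.11 to 0.54. The difference was positive in the 4 arrays without Y-linked signal (0.16) and in the 2 with it (0.32), and was 0.10 without GFP replicate 3. Lymphatic endothelial markers had a mean of 7.76, 7.94 and 7.15 with GFP and 7.88, 7.95 and 7.68 with CREB-H, lowest in GFP replicate 3 like Prox1. All 3 with a probe set had a higher mean (median 0.29), but the median was -0.08 without that array, and their part in Prox1 was not tested. Of the markers, Lyve1 is also made by sinusoidal endothelium and differed by 0.33 (SE 0.34), or by -0.08 without GFP replicate 3.

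Reported targets and partners of the ONECUT and PROX1 proteins were few. Of 4 targets with a probe set 2 had a higher and 2 a lower mean (median 0.01, and from -0.04 to 0.08 with 1 array left out). The lowest p was that of Pck1, also listed above as a target of C/EBP alpha. Its groups did not overlap (0.495, SE 0.17), and it differed by 0.31 without GFP replicate 3. Cyp7a1, the rate-limiting enzyme of bile acid synthesis, had 11.06, 11.33 and 11.24 with GFP and 10.93, 10.46 and 11.31 with CREB-H (-0.31, SE 0.22). The groups overlapped, and without CREB-H replicate 2 the difference was -0.09. Hnf4a, which sits at the centre of the network, had 11.19, 11.28 and 10.90 with GFP and 11.28, 11.27 and 10.92 with CREB-H, a difference of 0.03 (SE 0.15). Replicate 3 was its lowest array in each group. Nr5a2, the gene for LRH-1, differed by 0.30 (SE 0.16; 0.18 without CREB-H replicate 3) and Hnf4g, a relative of Hnf4a, by -0.02 (SE 0.10). The median of these 3 was 0.03, and ran from -0.06 to 0.15 with 1 array left out.

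Relatives were also set against each other within each array, which asks whether they changed unequally. With 3 against 3 arrays the exact test cannot give a p below 0.1, so no pair could have passed at 0.05, and the 4 pairs are given as values. The log2 ratio of Cebpb to Cebpa was 0.07, -0.17 and -1.93 with GFP and -1.25, -0.33 and -1.20 with CREB-H, a change of -0.25 (SE 0.70) with an exact two-sided permutation p of 0.8. The change was -0.16 (SE 0.34, exact p = 0.8) for Foxa1 to Foxa2, -0.03 (SE 0.32, exact p = 1) for Foxa3 to Foxa2 and 0.42 (SE 0.89, exact p = 0.7) for Onecut2 to Onecut1. All 4 had p = 1 after Benjamini-Hochberg adjustment of the exact values.

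**Figure D4:**
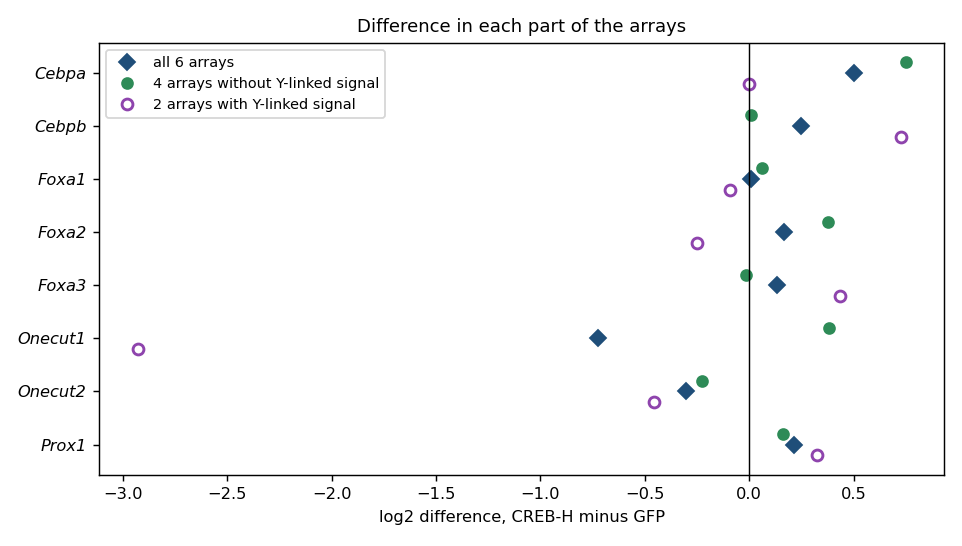
Log2 difference of each factor between CREB-H and GFP (horizontal axis) over all 6 arrays (diamonds), over the 4 arrays lacking Y-linked signal (filled circles), and from the 2 that carry it (open circles). The open circle of Onecut1 lies at -2.93 and its filled circle at 0.38, while the 3 marks of Onecut2 and of Prox1 keep to 1 side of 0.

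The difference between the arrays with and without Y-linked signal was tested as an interaction term over all probe sets, a test chosen after the data were seen. No member and no probe set passed after limma's adjustment. At an unadjusted p below 0.05 there were 2 of 8 members, against 6.9% of all probe sets. Those were Onecut1, with an interaction of -3.31 (SE 0.95, limma adjusted p = 0.674), and Foxa2, with -0.63 (SE 0.24, limma adjusted p = 0.718). Y-linked signal was present on 1 array per group, so a probe set's own spread came from the other arrays alone. Limma moderates that spread towards a value estimated over all probe sets, and the SEs are those of the moderated fit.

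No gene of the lists of other liver factors passed. Of 10 further C/EBP-related genes, 4 had a higher and 6 a lower mean (median -0.04). The median was positive in 4 of the 6 fits that each left out 1 array, and ran from -0.08 to 0.07. Ddit3, the stress factor CHOP that pairs with C/EBP proteins, had 6.91, 6.82 and 6.69 with GFP and 6.60, 6.39 and 6.31 with CREB-H. Atf5 had 8.24, 8.21 and 8.38 with GFP and 8.65, 8.77 and 9.70 with CREB-H. In both genes the groups lay apart, Ddit3 lower and Atf5 higher with CREB-H, and neither passed. The differences were -0.37 (SE 0.12) and 0.76 (SE 0.27), and Atf5 was 0.43 without CREB-H replicate 3. Dbp, a clock-controlled factor, differed by 0.82 (SE 0.43) over overlapping groups, and by 0.48 without GFP replicate 2.

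Of 7 factors of the hepatoblast and liver bud, 3 had a higher and 4 a lower mean (median -0.07). The median was -0.26 without GFP replicate 1, and with array weights 4 of 7 were higher. Hhex, an early liver bud factor, had 7.05, 7.86 and 8.26 with GFP and 7.36, 6.25 and 7.22 with CREB-H (-0.78, SE 0.39; -0.44 without CREB-H replicate 2 and -0.51 without GFP replicate 3). Onecut3, the third ONECUT gene, had 6.46, 6.52 and 6.43 against 6.55, 6.71 and 6.73 (0.19, SE 0.10), the opposite direction to Onecut1 and Onecut2. Of 12 cofactors and regulators, 6 had a higher and 6 a lower mean (median 0.01, and from -0.05 to 0.07 with 1 array left out). Zhx2 and Zbtb20, zinc finger factors that silence fetal genes such as Afp, did not overlap between the groups and differed in opposite directions, by 0.24 (SE 0.10) and -0.24 (SE 0.11).

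Genes of the mature hepatocyte read near the top of the scale, whose highest signal was 13.9, and differences there may be understated. Of 16 genes of the mature hepatocyte with a probe set, 9 had a higher and 7 a lower mean, from -0.21 to 0.15 (median 0.02), and none passed. With each array centred on its median, 12 of the 16 were higher, so the split follows the scaling. Without GFP replicate 3 the median was -0.02. The lowest p was that of Tdo2, a tryptophan-degrading enzyme, with 12.99, 12.88 and 12.93 against 12.63, 12.80 and 12.74 (-0.21, SE 0.10). Rbp4, the retinol carrier, differed by 0.15 (SE 0.10) and Apoa1, the main protein of HDL, by 0.10 (SE 0.10). Of 5 fetal liver genes, 4 had a higher and 1 a lower mean (median 0.02, and from -0.03 to 0.13 with 1 array left out). These genes are dim: with the dimmest 50% of probe sets left out, 2 were kept, 1 of them higher (median -0.006). Gpc3, a surface glypican of fetal liver, had 4.29, 4.70 and 4.47 against 4.73, 4.99 and 4.84 (0.37, SE 0.14), and Afp 4.55, 4.65 and 4.47 against 4.72, 4.68 and 4.52 (0.09, SE 0.11). Cdkn1c, an imprinted growth inhibitor, differed by -0.03 (SE 0.16).

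Markers of the remaining liver cell types were also read, and none passed. Sinusoidal endothelial markers had a higher mean with CREB-H in 4 of 5 (median 0.17), with array means of 8.80 to 9.12 with GFP and 8.96 to 9.19 with CREB-H. Stellate cell markers were higher in 5 of 6 (median 0.20), from 7.62 to 7.75 against 7.61 to 7.97. Without CREB-H replicate 2 the sinusoidal median was 0.09, and the stellate median was 0.07 with 4 of 6 higher. With GFP replicate 1 or 2 left out, the sinusoidal median was 0.09 or 0.30. Lymphocyte markers were higher in 3 of 4 (median 0.02), with medians from -0.04 to 0.10 when 1 array was left out. Acinar markers were higher in 3 of 3 (median 0.21), but without CREB-H replicate 2 the median was -0.10 and 1 of 3 was higher. The array means of each of these lists overlapped between the groups, and their part in the values of the 8 factors was not tested.

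**Figure D5:**
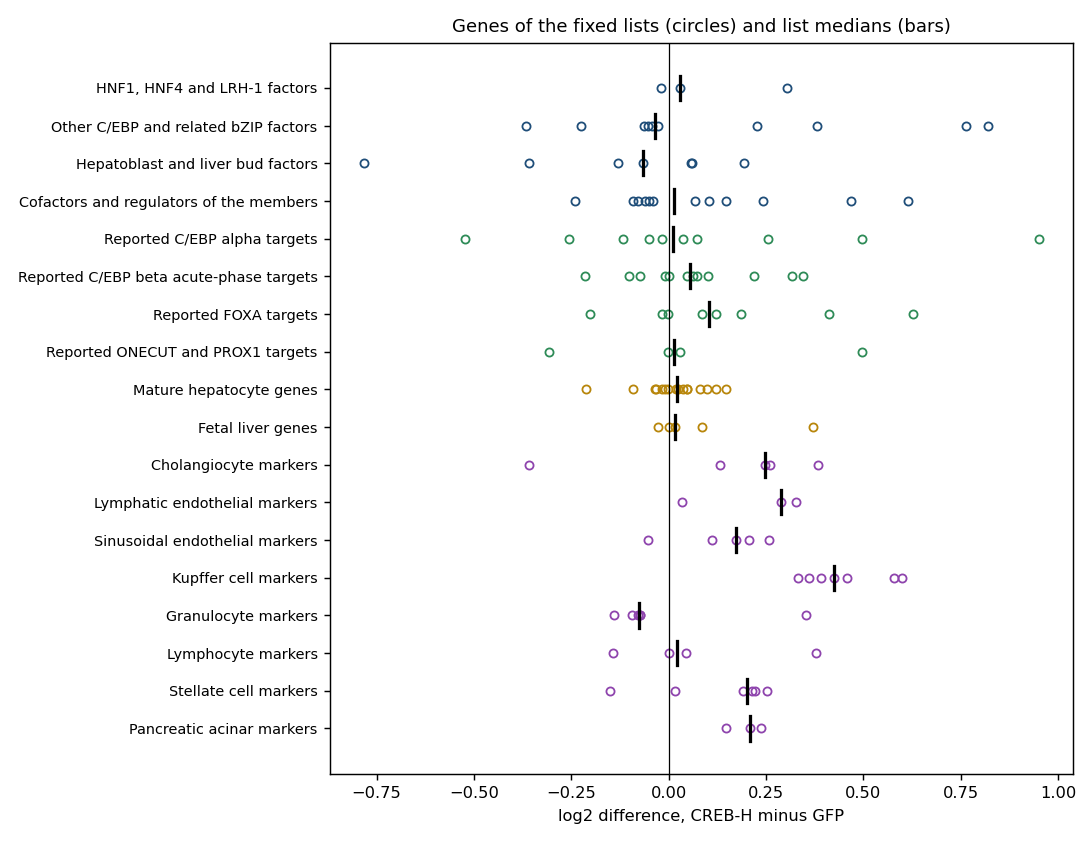
Log2 difference between CREB-H and GFP (horizontal axis) of each gene (circles) of the lists of other liver factors (blue), reported targets (green), hepatocyte programmes (yellow) and markers of other cells (purple), with list medians as bars. Mature hepatocyte genes stay between -0.21 and 0.15, and the 7 Kupffer markers all lie above 0.

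Genes with the most similar pattern were sought among genes that ranged over at least 0.5 between the 6 arrays, 7006 or 7007 for each factor. The most similar gene was Foxo1, a forkhead factor of insulin signalling, for Cebpb (Pearson r = 0.994 over 6 arrays), Zfp764 for Cebpa (0.983), Ankrd16 for Foxa1 (0.997) and Atp23 for Foxa2 (0.970). It was Spock3 for Foxa3 (0.986), the mitochondrial carrier gene Slc25a30 for Onecut1 (0.979), Gpr135 for Onecut2 (0.991) and the guanylate-binding protein gene Gbp8 for Prox1 (0.998). Foxo1 read 9.14, 8.85 and 7.97 with GFP and 8.85, 9.21 and 8.47 with CREB-H, lowest in replicate 3 of each group as Cebpb was. Slc25a30 read 8.73, 9.31 and 9.29 with GFP and 9.22, 8.90 and 7.67 with CREB-H, and so also had its lowest array in CREB-H replicate 3. Each is the highest of very many values over few arrays and is given as a description. Between 3 and 60 genes reached an r above 0.95 with a given factor.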

How the data were processed

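The deposited values are log2 signals of probe sets. Per the submitters' processing notes, the Transcriptome Analysis Console was used; no version, normalization or filter was stated there. That the scale is log2 was read from the range, 1.42 to 13.9. No scanner values were used, so background was not examined and differences at the dim and the bright end may be understated.

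Probe sets were named from GEO's platform annotation, where 1814 probe sets had several gene symbols and 16010 none, and were not named. All 8 members' symbols matched their Entrez IDs in RefSeq. Where a gene had several probe sets, the one with the highest mean over the 6 arrays was taken. All 41345 probe sets were fitted with limma 3.58.1 in R 4.3.3 (lmFit, eBayes, group as the only term, two-sided, Benjamini-Hochberg, threshold 0.05). An SE is that of the moderated difference. Paralog ratios had exact permutation tests in SciPy 1.17.1, with the plain SE of 2 means. The model was also run on simulated data. These had independent noise and no sex-linked pattern shared between probe sets, so the run does not vouch for calls on these arrays.

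The members, lists, tests and alternatives were chosen with earlier results of these data known. The 18 lists beside the members hold 131 genes, of which 115 had a probe set of that symbol. The text names all members, up to 3 genes per list of factors, targets and programmes by lowest p, markers as needed, and per member the most correlated gene without predicted genes, smell or pheromone receptors and immune receptor segments. Replicates are biological, per the labels. Replicate numbers were not taken as pairs.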

Additional observations from a re-analysis of the deposited data

Results flagged for a closer look

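Foxa2 moved in opposite directions in the arrays with and without Y-linked signal. Without it, both CREB-H arrays lay above both GFP arrays, by 0.378 on the log2 scale. With it, the CREB-H array lay below the GFP array (-0.252). The interaction did not pass after adjustment with limma (adjusted p = 0.718), and each side holds 1 or 2 arrays per group. The sign was the same on both sides in 4 of the 8 members, so a reversal was not particular to Foxa2. No member was tested for single outlying arrays, because each group holds 3.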

How the results depend on the processing

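No member passed under any of the 17 alternatives, and their adjusted p ran from 0.554 to 0.999. Cebpa, Foxa2, Onecut2 and Prox1 kept their direction in all 17. In the 4 arrays without Y-linked signal Foxa3 turned to -0.01 (-0.0134) and Onecut1 to 0.38. With 1 array left out, Cebpb ran from -0.22 to 0.53, Foxa1 from -0.17 to 0.17 and Onecut1 from -1.40 to 0.11. The median of the 8 members lay between 0.07 and 0.21. The limma count of probe sets that passed was 0 with the replicate block (3224 at an unadjusted p below 0.05), 0 in the 4 arrays without Y-linked signal (3338), 1 with a term for that signal and 0 to 2 with 1 array left out, against 2 (2850) with all arrays and no further term. With 1 probe set per gene, 3 of 22180 probe sets passed. The cause of these shifts in the count was not tested. Same-numbered arrays deviated from their group means with correlations of 0.08, 0.13 and 0.33, and not every array correlated best with its own number. Quantile normalization moved the median of all probe sets from -0.015 to 0.005, and centring to 0.003. Each member has 1 probe set, so averaging probe sets gave nothing new. Signal over background could not be examined.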
